A study of Danio rerio with 16 samples.

Results

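The comparison is between ankrd1a mutant and wild-type zebrafish ventricles after a sham operation, that is, hearts that were handled but not frozen. It holds 8 of the 16 libraries of the series, chosen by their labels as sham-operated, with 4 from mutants and 4 from wild type. The sham mutants carried the allele ankrd1abns502, which makes them ankrd1a mutant fish per the labels, and the sham wild-type fish were of the AB (Oregon) strain. All 8 libraries came from adult fish whose chest was opened and whose ventricle was touched for 25 seconds with a probe at room temperature. The fish then recovered for 7 days. The other 8 libraries, 4 injured mutants and 4 injured wild type, came from fish of the same genotypes touched with a probe cooled in liquid nitrogen. They give the genotype difference in a second set of fish. Each library was a pool of 3 ventricles, so the spread between libraries is that between pools of fish and not between single fish. The labels give neither sex nor exact age, nor whether mutants and wild type were siblings, so the mutation and other differences between the line and the strain cannot be told apart.

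The ankrd1 genes encode muscle ankyrin repeat proteins, which in mammals bind the N2A region of titin in the sarcomere and also enter the nucleus, where they act on transcription. In mammalian hearts Ankrd1 is known as a gene that rises with stretch, pressure load and injury, and in zebrafish ankrd1a is known as a gene of the injury border zone. Heart muscle itself burns mainly fatty acids, contracts through sarcomeres whose paralogous actins and myosins differ between chambers and stages, and holds resident endothelium, fibroblasts, epicardium and macrophages. Gene roles given here are those known from the mammalian proteins unless another source is named.

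Expression is given as CPM, counts per 1000000 counts after scaling of library size, as mean ± SD of 4 libraries or as the 4 libraries in the order of their replicate numbers. The fit did not pair libraries of the same number. Differences are log2 fold changes of sham mutant over sham wild type ± standard error, a scale on which each unit is a factor of 2. A gene is called when the quasi-likelihood F test of edgeR gave an adjusted p below 0.05 over all 14986 genes tested. CPM is not per length, so levels are compared between libraries and not between genes.

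Total counts were 6292428 to 12254719 in sham mutants and 5636617 to 7171930 in sham wild types. The first principal component of the 8 libraries held 37.6% of the variance and had all 4 mutants on one side and all 4 wild types on the other. On the second, with 15.7%, sham wild type replicate 4 stood farthest from the rest. Sham mutant replicate 4 stood apart for 4 genes without a descriptive name, at 421 to 18247 CPM, at least 10 times the next library. Mitochondrially encoded genes took 18.6% to 21.5% of the counts in sham mutants and 18.6% to 22.9% in sham wild types. The tissue label fitted the markers. The ventricular cardiomyocyte list summed to 101117 to 125392 CPM in sham mutants against 94618 to 102567 CPM in sham wild types. MYH7 (ENSDARG00000079782), a cardiac myosin heavy chain, had 44389.5 ± 4621 CPM in sham mutants against 35764 ± 1399 CPM in sham wild types (SD, n = 4 each). In bulk ventricles, fewer cells of a type and less RNA per cell cannot be told apart.

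The targeted gene was low in every sham library. The name table gives the symbol ANKRD1 to 2 gene IDs without saying which is ankrd1a. ANKRD1 (ENSDARG00000075263) had 0.277, 0.162, 0.781 and 0.698 CPM in the sham mutants against 1.71, 0.318, 0.617 and 4.44 CPM in the sham wild types. The groups overlapped, and the difference missed the threshold (log2 fold change -1.84 ± 0.88, edgeR adjusted p = 0.254). The other ANKRD1 (ENSDARG00000076192) had at most 5 counts in any sham library and was not tested. ANKRD2 had no count in any sham library. The mutant label could therefore not be checked by the gene's own level in uninjured hearts. ANKRD1 (ENSDARG00000075263) had 23.0 ± 8.35 CPM in injured mutants against 23.8 ± 15.6 CPM in injured wild types (SD, n = 4 each). It was not called there (log2 fold change -0.06 ± 0.47, edgeR adjusted p = 0.969).

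Of the 14986 genes tested, 870 (5.81%) were called, 392 higher (2.62%) and 478 lower (3.19%) in sham mutants. The median size of a called difference was 1.30 on the log2 scale. Of the called genes, 581 differed by at least 1 and 236 by at least 2, while the median over all tested genes was -0.00. In 782 of the 870 called genes the 4 sham mutant libraries and the 4 sham wild-type libraries did not overlap, against 13.8% of all genes tested. The calls were made on these same libraries, so the lack of overlap describes them and is no separate support. How many genes were called depended on single libraries. The count was 559 when sham wild type replicate 2 was left out and 724 when sham wild type replicate 3 was. The 390 genes called in the full set and in every one of the 8 fits that left out 1 library were 172 higher and 218 lower. DESeq2 called 389 of them.

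**Figure D1:**
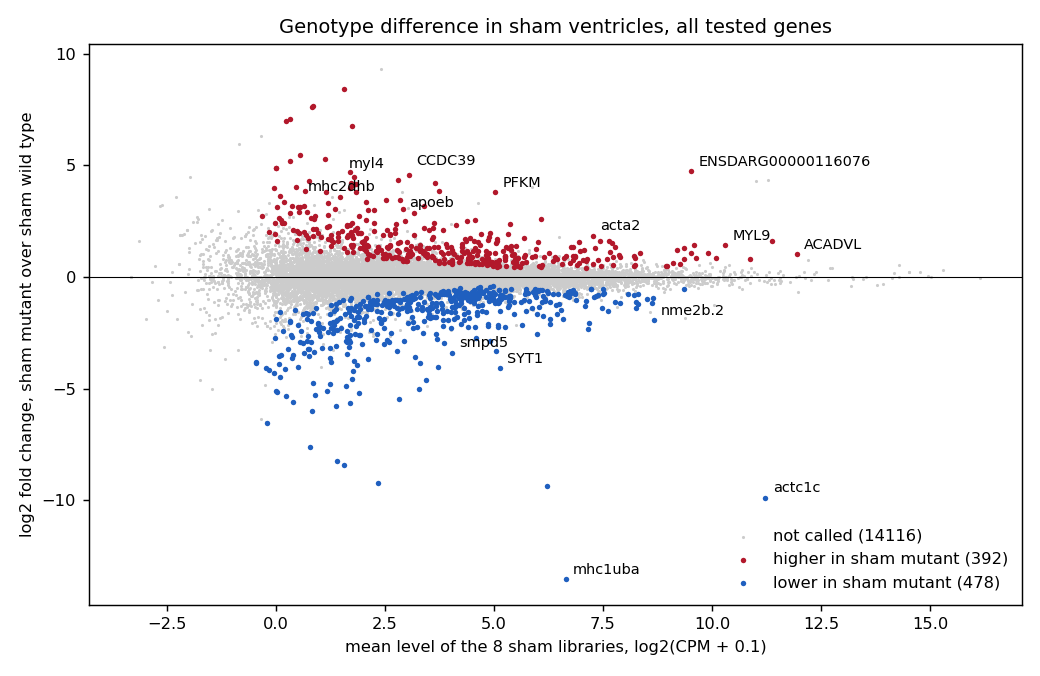
Each point is 1 of the 14986 tested genes, with its mean level over the 8 sham libraries on the x axis as log2(CPM + 0.1) and its log2 fold change of sham mutant over sham wild type on the y axis. Red points are the 392 genes called higher and blue points the 478 called lower. actc1c and mhc1uba lie farthest below 0, and ENSDARG00000116076, at the upper right, is a gene whose level lay in 1 mutant library.

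Among muscle genes, a cardiac actin was nearly missing in mutants, while 2 myosin light chains and smooth muscle actin were higher. actc1c (ENSDARG00000076126), an alpha-cardiac actin gene, had 3.60, 6.17, 6.25 and 4.39 CPM in sham mutants against 5119, 5552, 3786 and 4694 CPM in sham wild types. Wild types were all higher (log2 fold change -9.89 ± 2.05, edgeR adjusted p = 0.0077). Its paralog actc1a (ENSDARG00000042535) had 21326, 25606, 27287 and 20777 CPM in sham mutants against 15652, 17008, 15177 and 16706 CPM in sham wild types. All 4 mutants lay above all 4 wild types, yet the difference missed the threshold (log2 fold change 0.56 ± 0.18, edgeR adjusted p = 0.0824). Both actins together came to 23754 ± 3199 CPM in sham mutants against 20923 ± 1502 CPM in sham wild types (SD, n = 4 each). In injured hearts actc1c followed genotype in 3 of 4 libraries of each group. It had 1066, 6.92, 1.48 and 2.70 CPM in the injured mutants against 2079, 1842, 3408 and 4.78 CPM in the injured wild types. There 1 mutant library was high and 1 wild-type library was nearly empty. For SYT1 and CCDC39 the same 2 libraries lay with the other libraries of their labels. For the unnamed ENSDARG00000110173 the same wild-type library was again nearly empty, while the mutant library lay with the other mutants. A cause was not tested.

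Of 56 sarcomere genes tested, 4 were called higher and 2 lower in sham mutants (10.7%, against 5.81% of all genes). The median of the list was -0.11, or -0.17 to -0.03 in the fits without 1 library. myl4, an atrial light chain, had 6.65, 8.28, 6.83 and 4.49 CPM in sham mutants against 0.342, 0.318, 0.617 and 0.171 CPM in sham wild types. All mutant libraries lay above all wild-type libraries (log2 fold change 4.15 ± 0.40, edgeR adjusted p = 2.59e-05). SMYD1 (ENSDARG00000091253), a methyltransferase needed for thick filament assembly, had 252, 335, 313 and 329 CPM in sham mutants against 125, 80.8, 143 and 80.7 CPM in sham wild types. Every mutant was higher than every wild type (log2 fold change 1.52 ± 0.26, edgeR adjusted p = 0.0023). tcap, the titin cap of the Z-disc, had 227, 313, 336 and 215 CPM in sham mutants against 378, 403, 577 and 749 CPM in sham wild types. The groups lay apart, mutants lower (log2 fold change -0.95 ± 0.23, edgeR adjusted p = 0.0188). MYH6 (ENSDARG00000079564), a cardiac myosin heavy chain by its table symbol, had 889, 622, 1128 and 1813 CPM in sham mutants against 185, 689, 289 and 501 CPM in sham wild types, with 1 wild-type library inside the mutant range. It was called higher (log2 fold change 1.42 ± 0.35, edgeR adjusted p = 0.0215). The gene that the table spells myh6 (ENSDARG00000090637) averaged 186 CPM in sham mutants against 278 CPM in sham wild types (log2 fold change -0.58, edgeR adjusted p = 0.569). The call of tcap was lost with any 1 of sham mutant replicates 1 and 4 and sham wild type replicate 4 left out (adjusted p = 0.0633 to 0.0689). MYH6 lost its call with any 1 of sham mutant replicate 4 and sham wild type replicates 1 and 3 left out (adjusted p = 0.0545 to 0.0851). Titin itself was not called: TTN (ENSDARG00000028213) had 4706 ± 546 CPM in sham mutants against 5218 ± 666 CPM in sham wild types (SD, n = 4 each). The second TTN (ENSDARG00000000563) averaged 2882 CPM in sham mutants against 3228 CPM in sham wild types. Of the titin N2A and Z-disc list, tcap was the 1 call among 22 genes tested (4.55%, against 5.81% of all genes).

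TNNI1 (ENSDARG00000052708), the slow skeletal type of troponin I and the most abundant sarcomere gene called higher, had 2166, 2259.6, 2589.6 and 2440.1 CPM in sham mutants against 1448, 1396, 1266 and 1375 CPM in sham wild types. The lowest mutant exceeded the highest wild type (log2 fold change 0.79 ± 0.16, edgeR adjusted p = 0.00598). It was the 1 call among 12 ventricular cardiomyocyte markers tested (8.33%, against 5.81% of all genes). MYL9 (ENSDARG00000008030), a regulatory myosin light chain of smooth muscle and non-muscle cells, had 1609.9, 1752, 2506 and 1505 CPM in sham mutants against 593, 658, 844 and 675 CPM in sham wild types. Mutants were higher without overlap (log2 fold change 1.41 ± 0.19, edgeR adjusted p = 0.000522). The second gene of that symbol (ENSDARG00000038123) did not share the difference, with 290.3 ± 30.0 CPM in sham mutants against 311 ± 65.5 CPM in sham wild types (SD, n = 4 each; edgeR adjusted p = 0.879). acta2, smooth muscle actin, had 188, 305, 278 and 195 CPM in sham mutants against 53.7, 79.9, 68.1 and 66.7 CPM in sham wild types. Wild types were all lower (log2 fold change 1.84 ± 0.25, edgeR adjusted p = 0.000552). Each of TNNI1, MYL9 (ENSDARG00000008030) and acta2 was called in all 8 fits without 1 library.

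MYL9 (ENSDARG00000008030) and acta2 stood in a list of smooth muscle, atrium and bulbus arteriosus markers, as did myl4 and MYH6 (ENSDARG00000079564). Of its 25 tested members these 4 were called higher and 1 lower (20.0%, against 5.81% of all genes). The lower one, smtnb, a smoothelin, averaged 79.1 CPM in sham mutants against 128 CPM in sham wild types (log2 fold change -0.69, edgeR adjusted p = 0.0430). No member was called lower when any 1 of sham mutant replicates 1, 2 and 4 and sham wild type replicates 1 and 2 was left out. The list gave 3 calls with any 1 of sham mutant replicate 4 and sham wild type replicate 1 left out but 6 without sham wild type replicate 4. The summed level of the list was 5809 to 7737 CPM in sham mutants against 3605 to 5089.8 CPM in sham wild types, so the libraries of the 2 groups did not overlap. MYL9, MYH6 and acta2 and the uncalled nppa held most of the difference between the sums. The median of the list was 0.11, with 15.0 positive and 10.0 negative values. Its other markers were not called. The gene spelled myh6 (ENSDARG00000090637) is 1 of them, at a log2 fold change of -0.58. The atrial peptide gene nppa had 2154 ± 308 CPM in sham mutants against 1635 ± 454 CPM in sham wild types (SD, n = 4 each). MYH11 (ENSDARG00000009782), a smooth muscle myosin, averaged 41.1 CPM in sham mutants against 40.8 CPM in sham wild types. Neither TAGLN gene was called (edgeR adjusted p = 0.343 and 0.525). CNN1 (ENSDARG00000017193) had no count in any sham library. The part of atrium or outflow tract tissue in these calls was not tested.

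**Figure D2:**
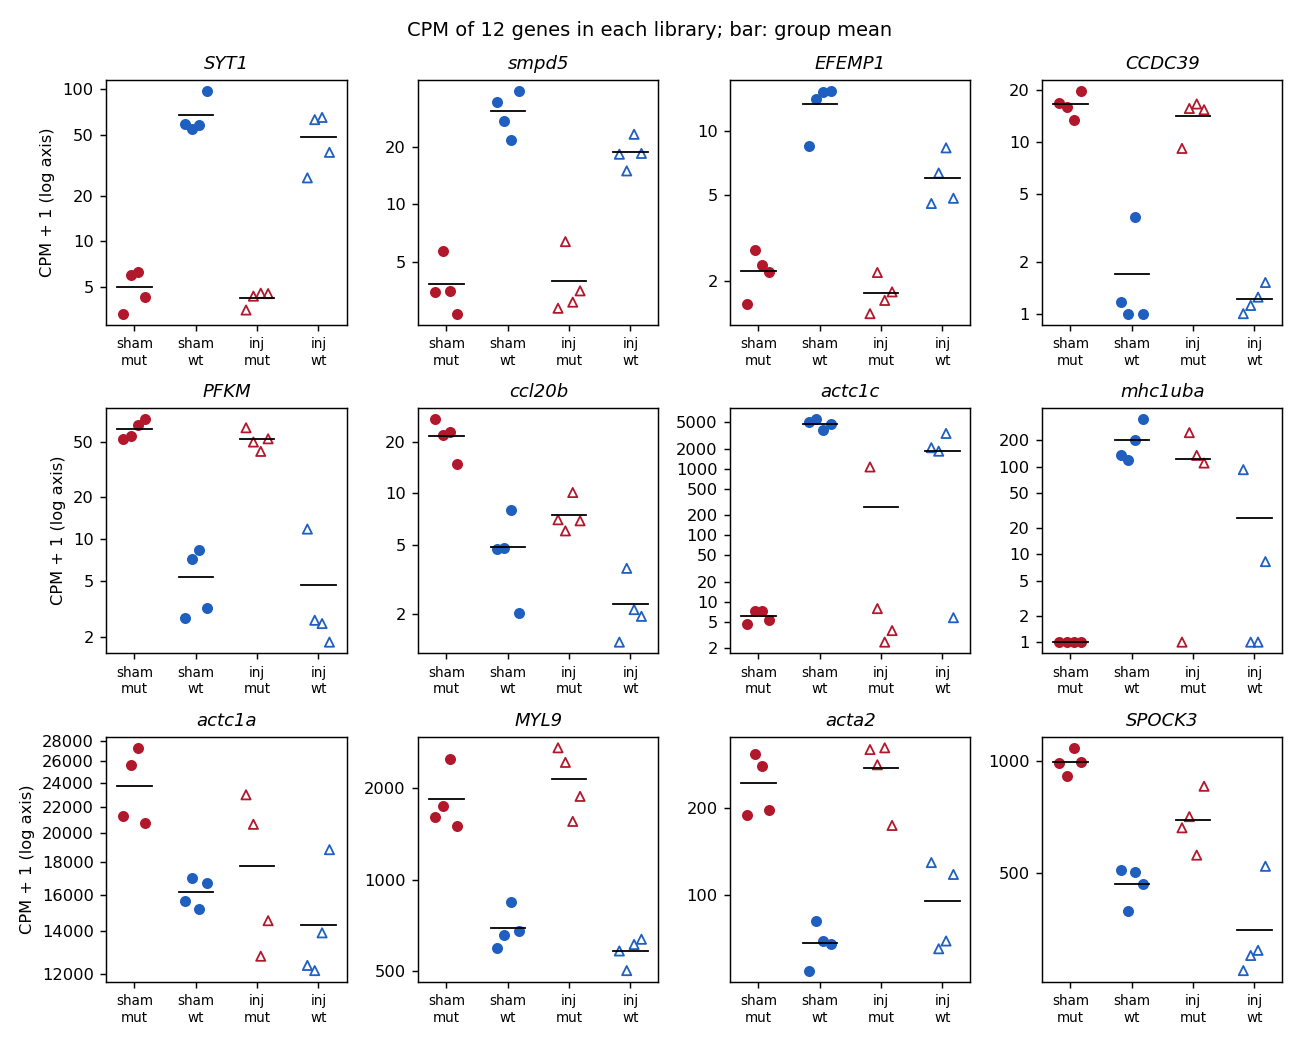
CPM + 1 on a log axis for 12 genes in each of the 16 libraries, with filled circles for sham and open triangles for injured libraries, red for mutant and blue for wild type, and a bar at each group mean. SYT1, smpd5, EFEMP1, CCDC39, PFKM, ccl20b and MYL9 separate mutant from wild type in sham and injured libraries alike, while actc1c and mhc1uba are mixed in the injured groups.

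Genes of fuel use were called in both directions, in fatty acid oxidation and in glycolysis alike. Among 45 genes of fatty acid uptake and oxidation, 5 were called higher and 2 lower (15.6%, against 5.81% of all genes). ACADVL, which starts the oxidation of very long-chain fatty acids in mitochondria, had 4411, 6174, 5453 and 5158 CPM in sham mutants against 3053, 2120.4, 2926 and 2429 CPM in sham wild types. The groups lay apart, mutants higher (log2 fold change 1.01 ± 0.28, edgeR adjusted p = 0.0393). It was the most abundant gene called higher. FABP3, the heart fatty acid binding protein, named after its values were seen, had 865, 934, 1189 and 1054 CPM in sham mutants against 553, 545, 655 and 516 CPM in sham wild types. There was no overlap, and mutants were higher (log2 fold change 0.83 ± 0.13, edgeR adjusted p = 0.00156). ANGPTL4, a secreted inhibitor of lipoprotein lipase, had 96.2, 130.1, 70.5 and 22.3 CPM in sham mutants against 21.9, 19.8, 20.4 and 31.6 CPM in sham wild types, with mutant replicate 4 inside the wild-type range. It was called higher (log2 fold change 1.76 ± 0.39, edgeR adjusted p = 0.0118). On the other side, ACAA2, the thiolase of the last step of mitochondrial beta-oxidation, had 69.9, 81.5, 91.2 and 71.9 CPM in sham mutants against 199, 253, 191 and 134 CPM in sham wild types. There was no overlap, and mutants were lower (log2 fold change -1.30 ± 0.37, edgeR adjusted p = 0.0427).

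The acyl-CoA synthetases that activate fatty acids moved apart. acsl1b had 1021, 1470.5, 1042 and 1693 CPM in sham mutants against 709, 477, 786 and 496 CPM in sham wild types. Mutant values were all higher (log2 fold change 1.08 ± 0.29, edgeR adjusted p = 0.0357). ACSL1 (ENSDARG00000030514) had 65.0, 79.4, 57.8 and 85.0 CPM in sham mutants against 133, 140.0, 120.2 and 133 CPM in sham wild types. Mutant values were all lower (log2 fold change -0.87 ± 0.21, edgeR adjusted p = 0.0173). SLC25A20, the carnitine-acylcarnitine carrier, named after its values were seen, had 81.4 ± 14.4 CPM in sham mutants against 55.9 ± 6.58 CPM in sham wild types (SD, n = 4 each; log2 fold change 0.54 ± 0.14, edgeR adjusted p = 0.0324). The calls of FABP3 and ANGPTL4 held in all 8 fits without 1 library. The others did not. ACADVL lost its call with any 1 of the 8 libraries left out (adjusted p = 0.0503 to 0.111). ACAA2 lost its call with any 1 of sham mutant replicates 1, 2, 3 and 4 and sham wild type replicates 1, 2 and 3 left out (adjusted p = 0.0721 to 0.118). acsl1b was lost with any 1 of sham mutant replicates 2 and 4 and sham wild type replicates 1, 2 and 4 left out (adjusted p = 0.0557 to 0.106), ACSL1 with any 1 of sham mutant replicates 1 and 3 left out (adjusted p = 0.0554 to 0.0598) and SLC25A20 with any 1 of sham mutant replicates 2 and 4 and sham wild type replicates 1, 2 and 4 left out (adjusted p = 0.0582 to 0.11). The list gave 3 calls with any 1 of sham mutant replicate 2 and sham wild type replicates 1 and 2 left out but 6 without sham wild type replicate 3. ACADM and HADHB, abundant enzymes of the same pathway, were not called, at log2 fold changes of 0.20 and 0.11.

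Among 61 genes of glycolysis and glycogen, 2 were called higher and 3 lower (8.20%, against 5.81% of all genes). PFKM (ENSDARG00000014179), the muscle phosphofructokinase of the committing step of glycolysis, had 51.4, 53.9, 65.4 and 71.6 CPM in sham mutants against 1.71, 6.19, 7.41 and 2.22 CPM in sham wild types. No wild type reached the mutant range (log2 fold change 3.80 ± 0.55, edgeR adjusted p = 0.000819). The more abundant gene of the same symbol (ENSDARG00000060797) was not called, with 693 ± 70.6 CPM in sham mutants against 768 ± 135 CPM in sham wild types (SD, n = 4 each; edgeR adjusted p = 0.714). PKLR, a pyruvate kinase of liver and red cells, had 0.139, 0.162, 0 and 0 CPM in sham mutants against 1.20, 2.38, 0.412 and 0.683 CPM in sham wild types. No mutant reached the wild-type range (log2 fold change -3.79 ± 0.88, edgeR adjusted p = 0.0155). PYGL, the liver type of glycogen phosphorylase, had 12.6, 42.2, 46.1 and 59.2 CPM in sham mutants against 2.22, 6.19, 16.0 and 3.41 CPM in sham wild types, overlapping in 1 library of each group. The call stood (log2 fold change 2.55 ± 0.53, edgeR adjusted p = 0.00744). PFKFB2, the heart enzyme that makes and breaks the activator of phosphofructokinase, had 6.24, 5.68, 6.25 and 5.69 CPM in sham mutants against 28.4, 14.6, 19.5 and 27.5 CPM in sham wild types. Mutants lay below wild types throughout (log2 fold change -1.92 ± 0.24, edgeR adjusted p = 0.000268). PYGL had a log2 fold change of 3.33 without sham wild type replicate 3. The calls of PFKM, PYGL and PFKFB2 held in all 8 fits without 1 library. PKLR lost its call with any 1 of sham mutant replicate 4 and sham wild type replicate 2 left out (adjusted p = 0.0605 to 0.0679). The list gave 3 calls without sham wild type replicate 2 but 5 without sham wild type replicate 3. GAPDH and ALDOA (ENSDARG00000011665), the abundant enzymes of the trunk pathway, were not called (edgeR adjusted p = 0.489 and 0.125).

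The respiratory chain showed little. Of 83 nuclear genes of oxidative phosphorylation 2 were called higher and none lower, a share of 2.41%, below the 5.81% of all genes. atp5mf, a subunit of ATP synthase, had 115, 197, 188 and 237 CPM in sham mutants against 50.1, 68.6, 54.5 and 78.0 CPM in sham wild types. Mutants lay above wild types throughout (log2 fold change 1.55 ± 0.30, edgeR adjusted p = 0.00443). Its call held in all 8 fits without 1 library. The other, SDHD (ENSDARG00000055712), stayed below 4 CPM in every sham library and lost its call with any 1 of sham mutant replicates 2, 3 and 4 and sham wild type replicates 1, 2, 3 and 4 left out (adjusted p = 0.0605 to 0.131). The more abundant SDHD (ENSDARG00000030139) was not called. It averaged 127 CPM in sham mutants against 131 CPM in sham wild types (edgeR adjusted p = 0.915). None of the 13 mitochondrially encoded genes was called by edgeR and none had an unadjusted p below 0.05. DESeq2 called none of them either.

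Ion channel and calcium handling genes were called in both directions. Of 52 genes of ion channels and calcium handling, 1 was called higher and 4 lower (9.62%, against 5.81% of all genes). The list median was -0.20. ATP1B1 (ENSDARG00000076833), a beta subunit of the sodium-potassium pump, had 3.74, 0.812, 5.66 and 14.1 CPM in sham mutants against 34.4, 67.0, 28.4 and 38.9 CPM in sham wild types. Separation was complete, with mutants lower (log2 fold change -2.74 ± 0.68, edgeR adjusted p = 0.0231). The more abundant ATP1B1 (ENSDARG00000013144) had 835 ± 77.7 CPM in sham mutants against 965 ± 74.9 CPM in sham wild types (SD, n = 4 each; edgeR adjusted p = 0.576). kcnj11, the pore of the ATP-sensitive potassium channel, had 1.66, 2.92, 1.17 and 3.29 CPM in sham mutants against 9.92, 11.6, 7.00 and 6.14 CPM in sham wild types. All mutant libraries lay below all wild-type libraries (log2 fold change -1.89 ± 0.33, edgeR adjusted p = 0.00254). scn4ab, a muscle sodium channel, was the call in the other direction, with 67.8, 64.3, 50.7 and 44.2 CPM in sham mutants against 26.2, 22.5, 21.4 and 22.7 CPM in sham wild types. Separation was complete, with mutants higher (log2 fold change 1.29 ± 0.25, edgeR adjusted p = 0.00465). cacna2d1a, an auxiliary subunit of calcium channels, averaged 23.7 ± 1.36 CPM in sham mutants against 46.0 ± 8.50 CPM in sham wild types (SD, n = 4 each; log2 fold change -0.96 ± 0.23, edgeR adjusted p = 0.0196). Its groups did not overlap. ATP1B1 had a log2 fold change of -3.65 without sham mutant replicate 4. It lost its call with any 1 of sham mutant replicates 1, 2 and 3 and sham wild type replicate 2 left out (adjusted p = 0.0579 to 0.0742), and cacna2d1a with any 1 of sham mutant replicates 1 and 4 and sham wild type replicate 2 left out (adjusted p = 0.0501 to 0.0752). The list gave 2 calls without sham wild type replicate 2 but 5 without sham wild type replicate 1. Without sham wild type replicate 2 it held 1 higher and 1 lower call, and without sham mutant replicate 1 it held 2 of each. The calcium pump atp2a2a and the exchanger SLC8A1 (ENSDARG00000013422), the main routes by which heart cells clear calcium, were not called, at log2 fold changes of -0.13 and 0.14.

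SYT1, synaptotagmin, the calcium sensor of vesicle release, gave the lowest adjusted p of all genes. It had 2.36, 5.03, 5.27 and 3.29 CPM in sham mutants against 57.6, 53.8, 57.0 and 96.4 CPM in sham wild types. Every mutant was lower than every wild type (log2 fold change -4.08 ± 0.33, edgeR adjusted p = 3.37e-06). Injured hearts showed the same, with 2.55, 3.37, 3.57 and 3.55 CPM in injured mutants against 25.2, 62.1, 64.2 and 37.5 CPM in injured wild types (log2 fold change -3.84 ± 0.32, edgeR adjusted p = 7.72e-06). cacna1aa, the pore of a P/Q-type calcium channel, had 3.19, 7.14, 3.12 and 0.0997 CPM in sham mutants against 25.3, 25.6, 28.6 and 10.1 CPM in sham wild types. The highest mutant stayed below the lowest wild type (log2 fold change -2.79 ± 0.60, edgeR adjusted p = 0.0101). Its log2 fold change was -3.50 without sham mutant replicate 2. Both stood in a list of neuron and glia markers whose sum was 58.5 to 76.9 CPM in sham mutants against 156 to 257 CPM in sham wild types. SYT1, cacna1aa and the uncalled tubb2b (ENSDARG00000098591) held most of the difference between the sums. They averaged 3.99, 3.39 and 20.8 CPM in sham mutants against 66.2, 22.4 and 46.2 CPM in sham wild types. The defining members of the list were at or near 0. ELAVL3 had at most 1 count in any sham library, syn1 at most 2 and SNAP25 (ENSDARG00000020609) at most 6. Of the 14 members tested, 2 were called, both lower (14.3%, against 5.81% of all genes).

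Immune genes held both directions. Of 34 genes of MHC and antigen presentation, 4 were called higher and 3 lower (20.6%, against 5.81% of all genes). mhc1uba, a class I heavy chain gene of a family whose members are known to differ between zebrafish haplotypes, had no count in any sham mutant, against 134, 119, 200.2 and 344 CPM in sham wild types. That is at least 447-fold lower in mutants when 3 counts per library are taken as the floor (edgeR adjusted p = 0.0137). In injured hearts it was not tied to genotype, with 0, 243, 133 and 109 CPM in injured mutants against 91.3, 0, 0 and 7.27 CPM in injured wild types. Haplotypes were not determined. mhc1zba, another class I gene, had 107, 98.1, 195 and 280.0 CPM in sham mutants against 458, 405, 459.7 and 458 CPM in sham wild types. Mutants were lower without overlap (log2 fold change -1.39 ± 0.37, edgeR adjusted p = 0.0354). The class II beta genes ran the other way. mhc2dhb had 25.5, 7.79, 7.81 and 10.6 CPM in sham mutants against 0, 0, 2.88 and 0 CPM in sham wild types. All mutant libraries lay above all wild-type libraries (log2 fold change 4.33 ± 1.11, edgeR adjusted p = 0.0264). mhc2dgb had 10.7, 4.22, 3.71 and 5.59 CPM in sham mutants against 0, 0, 1.44 and 0 CPM in sham wild types. Every mutant was higher than every wild type (log2 fold change 4.21 ± 1.02, edgeR adjusted p = 0.0193). In both, 3 of the 4 wild-type libraries had no count, and DESeq2 called neither (adjusted p = 0.2 and 0.112).

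Beta-2 microglobulin, the light chain that class I molecules need, was higher, in 2 genes named after their values were seen. b2ml had 998, 734, 789 and 805 CPM in sham mutants against 398, 486, 531 and 469 CPM in sham wild types. The lowest mutant exceeded the highest wild type (log2 fold change 0.82 ± 0.14, edgeR adjusted p = 0.00198). b2m had 823, 656, 813 and 639 CPM in sham mutants against 479, 458, 498 and 523 CPM in sham wild types. Mutants were higher without overlap (log2 fold change 0.58 ± 0.16, edgeR adjusted p = 0.0362). The class I heavy chains mhc1uba and mhc1zba were lower in the same mutants. The calls of mhc1uba and b2ml held in all 8 fits without 1 library. mhc1zba lost its call with any 1 of sham mutant replicates 1, 2 and 3 and sham wild type replicates 1, 2, 3 and 4 left out (adjusted p = 0.0619 to 0.104), and mhc2dhb with any 1 of sham mutant replicate 1 and sham wild type replicates 1, 2 and 4 left out (adjusted p = 0.0692 to 0.0834). mhc2dgb lost its call with any 1 of sham mutant replicate 1 and sham wild type replicates 1, 2 and 4 left out (adjusted p = 0.0533 to 0.0654), and b2m with any 1 of sham mutant replicates 1 and 3 and sham wild type replicates 1, 2, 3 and 4 left out (adjusted p = 0.0567 to 0.0997). The list gave 2 calls with any 1 of sham mutant replicate 1 and sham wild type replicate 4 left out but 7 with any 1 of sham mutant replicates 2 and 4 left out.

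Leukocyte genes were called in 1 direction. Of 41 markers of macrophages, neutrophils and other leukocytes tested, 4 were called higher and none lower (9.76%, against 5.81% of all genes). A positive log2 fold change was found in 35, and the median was 0.50. Without sham mutant replicate 1 the median was 0.28. The 6 negative members were MMP9, il1b, MPEG1 (ENSDARG00000043093), nkl.2, SPI1 and csf1rb. They lay at -0.90, -0.82, -0.63, -0.31, -0.11 and -0.09, none of them called. The macrophage markers MPEG1 (ENSDARG00000055290) and csf1ra lay at 0.65 and 0.41 and were not called either. marco, a macrophage scavenger receptor, had 43.8, 16.7, 32.8 and 41.8 CPM in sham mutants against 8.21, 15.2, 8.02 and 8.02 CPM in sham wild types. Wild types were all lower (log2 fold change 1.77 ± 0.36, edgeR adjusted p = 0.00699). Its call held in all 8 fits without 1 library. apoeb, an apolipoprotein E, had 40.9, 4.55, 4.10 and 2.09 CPM in sham mutants against 1.20, 0.953, 0.617 and 1.88 CPM in sham wild types. The groups lay apart, mutants higher (log2 fold change 3.44 ± 0.83, edgeR adjusted p = 0.0186). Its log2 fold change was 1.56 without sham mutant replicate 1, and the replicate block gave an edgeR adjusted p of 0.0552. c1qa, a complement component made by macrophages, had 11.0 ± 4.29 CPM in sham mutants against 4.63 ± 1.86 CPM in sham wild types (SD, n = 4 each; log2 fold change 1.24 ± 0.30, edgeR adjusted p = 0.0209). Mutant replicate 1 stood highest for apoeb, c1qa and marco. The summed list was 423 to 958 CPM in sham mutants against 283 to 446 CPM in sham wild types, again with mutant replicate 1 at the top. The list gave 1 call with any 1 of sham mutant replicate 1 and sham wild type replicate 3 left out but 8 without sham mutant replicate 2. apoeb lost its call with any 1 of sham mutant replicate 1 and sham wild type replicates 2 and 3 left out (adjusted p = 0.0518 to 0.0892). c1qa lost its call with any 1 of sham mutant replicates 1 and 4 and sham wild type replicates 1 and 3 left out (adjusted p = 0.0539 to 0.0741), and ctss2.2, a cathepsin S, with any 1 of sham mutant replicates 1 and 3 and sham wild type replicates 2, 3 and 4 left out (adjusted p = 0.0673 to 0.138). Pan-leukocyte genes were not called, with LCP1 at an average of 22.2 CPM in sham mutants against 21.8 CPM in sham wild types. LCP1 and CORO1A had log2 fold changes of 0.03 and 0.06, and ptprc, laptm5 and itgb2 of 0.40, 0.34 and 0.44. T and B cell genes were low, with cd8a, cd79a and RAG1 at 0 to 2 counts, lck and cd4-1 at up to 5, ZAP70 at up to 8 and ighm at up to 14 in a sham library. ccl20b, a chemokine that is not on the list, had 25.9, 20.8, 21.9 and 13.8 CPM in sham mutants against 3.76, 3.81, 7.00 and 1.02 CPM in sham wild types (log2 fold change 2.41 ± 0.42, edgeR adjusted p = 0.00271). Injured hearts had the same direction (log2 fold change 2.34 ± 0.46, edgeR adjusted p = 0.0108).

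Of 27 genes of the interferon response, 2 were called higher and 1 lower (11.1%, against 5.81% of all genes). ifi44a1 had 3.33, 2.60, 2.73 and 3.29 CPM in sham mutants against 0.342, 0.159, 0.617 and 0.853 CPM in sham wild types. There was no overlap, and mutants were higher (log2 fold change 2.59 ± 0.53, edgeR adjusted p = 0.00661). SOCS1, a brake on cytokine signalling, had 2.08, 0.974, 0.586 and 0.898 CPM in sham mutants against 6.33, 7.30, 4.73 and 2.22 CPM in sham wild types. Wild types were all higher (log2 fold change -2.15 ± 0.42, edgeR adjusted p = 0.00538). Both calls held in all 8 fits without 1 library. irf1b, an interferon regulatory factor, was also higher (log2 fold change 1.16 ± 0.29, edgeR adjusted p = 0.0221), a call lost with any 1 of sham mutant replicate 1 and sham wild type replicates 1 and 3 left out (adjusted p = 0.0616 to 0.0739).

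**Figure D3:**
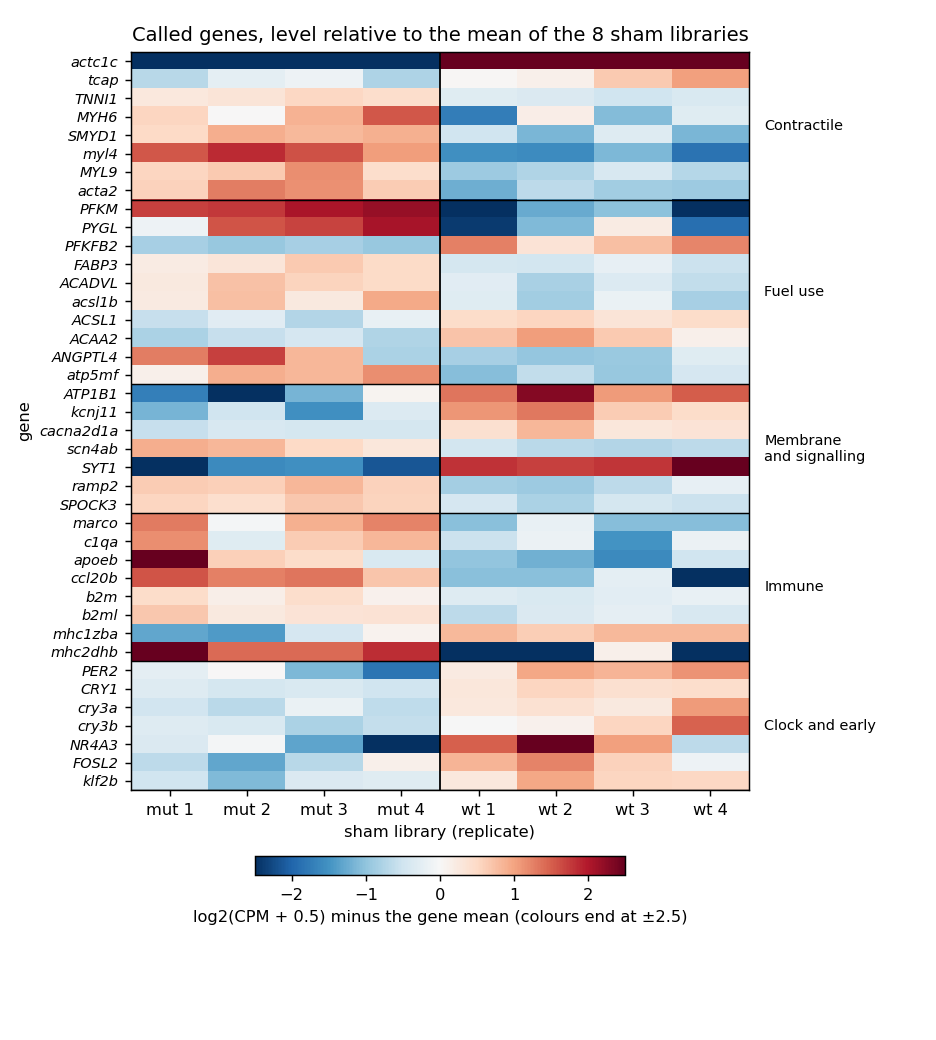
Called genes in rows and the 8 sham libraries in columns, mutants at the left, with colour for log2(CPM + 0.5) minus the gene's mean over the 8 libraries and colours ending at 2.5 on either side. MYL9, acta2, myl4 and FABP3 are red in all 4 mutants and the called CRY1 (ENSDARG00000045768), cry3a and cry3b blue, while apoeb owes its strongest colour to mutant 1.

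The circadian clock runs in heart cells on a loop of activators and repressors. Of 40 circadian genes tested, 4 were called lower and none higher (10.0%, against 5.81% of all genes). The list median was -0.11, or -0.31 to 0.01 in the fits without 1 library, with 16 positive and 24 negative values. CRY1 (ENSDARG00000045768), a cryptochrome that represses the clock's activators, had 129.6, 119.5, 123 and 114 CPM in sham mutants against 196, 233, 212 and 219 CPM in sham wild types. The groups lay apart, mutants lower (log2 fold change -0.82 ± 0.15, edgeR adjusted p = 0.00344). The second CRY1 gene (ENSDARG00000011583) was not called. It averaged 30.5 CPM in sham mutants against 38.3 CPM in sham wild types (log2 fold change -0.33, edgeR adjusted p = 0.581). PER2, the partner of cryptochromes in repression, had 64.6, 77.6, 34.9 and 21.3 CPM in sham mutants against 89.8, 151, 138 and 168 CPM in sham wild types. There was no overlap, and mutants were lower (log2 fold change -1.46 ± 0.39, edgeR adjusted p = 0.0342). cry3a averaged 27.0 ± 4.68 CPM in sham mutants against 54.3 ± 16.4 CPM in sham wild types (SD, n = 4 each; edgeR adjusted p = 0.0139). cry3b averaged 19.8 ± 2.98 CPM in sham mutants against 45.1 ± 24.1 CPM in sham wild types (SD, n = 4 each; edgeR adjusted p = 0.0395). Neither overlapped. Of the 4, CRY1 (ENSDARG00000045768) alone held in all 8 fits without 1 library. PER2 lost its call with any 1 of sham mutant replicates 3 and 4 and sham wild type replicates 2, 3 and 4 left out (adjusted p = 0.0613 to 0.0964). cry3a lost its call without sham wild type replicate 4 (adjusted p = 0.0517), and cry3b with any 1 of sham mutant replicates 1, 2, 3 and 4 and sham wild type replicates 3 and 4 left out (adjusted p = 0.0608 to 0.165). The list gave 1 call without sham wild type replicate 4 but 4 without sham wild type replicate 1. PER1 (ENSDARG00000012499) and BHLHE40, the most abundant members without a call, had log2 fold changes of -0.10 and 0.59. The labels give no time of day of sampling, so its part was not tested.

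Immediate early genes, which answer within minutes to stimulation and to handling of tissue, were called in both directions. Of 53 tested, 3 were called higher and 6 lower (17.0%, against 5.81% of all genes). The list median was -0.40, or -0.54 to -0.26 in the fits without 1 library. NR4A3, an orphan nuclear receptor, had 65.4, 81.5, 33.4 and 12.9 CPM in sham mutants against 239, 491, 172 and 53.1 CPM in sham wild types. The groups overlapped (log2 fold change -2.31 ± 0.65, edgeR adjusted p = 0.0421). FOSL2, a subunit of AP-1, had 6.65, 4.06, 6.44 and 11.8 CPM in sham mutants against 19.8, 26.4, 16.3 and 9.90 CPM in sham wild types. Ranges of the groups overlapped (log2 fold change -1.29 ± 0.37, edgeR adjusted p = 0.0465). KLF11 (ENSDARG00000013794), a zinc finger factor, was on the other side with 101, 140.5, 101 and 43.0 CPM in sham mutants against 55.7, 28.9, 16.9 and 26.1 CPM in sham wild types. Mutant and wild-type values overlapped (log2 fold change 1.59 ± 0.39, edgeR adjusted p = 0.021). The second KLF11 gene (ENSDARG00000030844) was also called, with 11.6 ± 3.73 CPM in sham mutants against 5.07 ± 1.22 CPM in sham wild types (SD, n = 4 each; edgeR adjusted p = 0.0471). NR4A3 lost its call with any 1 of sham mutant replicates 1, 3 and 4 and sham wild type replicates 1, 2 and 3 left out (adjusted p = 0.0543 to 0.153), and its log2 fold change was -1.68 without sham wild type replicate 2. FOSL2 lost its call with any 1 of sham mutant replicates 1, 2 and 3 and sham wild type replicates 1, 2 and 3 left out (adjusted p = 0.0679 to 0.147), and KLF11 (ENSDARG00000013794) with any 1 of sham mutant replicate 2 and sham wild type replicates 2, 3 and 4 left out (adjusted p = 0.0592 to 0.0684). The list gave 2 calls with any 1 of sham wild type replicates 1 and 2 left out but 5 with any 1 of sham mutant replicates 3 and 4 and sham wild type replicate 4 left out. Its summed level was 2841 to 3578 CPM in sham mutants against 2952 to 5078 CPM in sham wild types, with wild type replicate 4 the lowest of its group.

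Heat shock genes were called at about the share of all genes. Among 53 heat shock and chaperone genes, 1 was called higher, SMYD1, and 2 lower, 5.66% against 5.81% of all genes tested. CRYAB (ENSDARG00000101380), the small heat shock protein alpha-B crystallin, had 0, 3.09, 0 and 2.19 CPM in sham mutants against 8.89, 16.4, 21.0 and 20.3 CPM in sham wild types. Mutant values were all lower (log2 fold change -3.57 ± 0.84, edgeR adjusted p = 0.0163). HSPH1 had 5.41, 6.50, 7.61 and 6.88 CPM in sham mutants against 13.2, 12.2, 11.9 and 30.7 CPM in sham wild types. No mutant reached the wild-type range (log2 fold change -1.37 ± 0.31, edgeR adjusted p = 0.0132). Both calls held in all 8 fits without 1 library, but DESeq2 did not call CRYAB (adjusted p = 0.108). ubb, a polyubiquitin gene, had 347, 399.8, 310.2 and 149 CPM in sham mutants against 90.5, 111, 102 and 92.0 CPM in sham wild types. Mutant values were all higher (log2 fold change 1.61 ± 0.27, edgeR adjusted p = 0.00214). It led 39 genes of proteolysis and autophagy, of which 2 were called higher and 1 lower (7.69%, against 5.81% of all genes). The lower one was MAP1LC3B of the autophagosome membrane (log2 fold change -0.64 ± 0.15, edgeR adjusted p = 0.019), a call lost with any 1 of sham mutant replicates 3 and 4 and sham wild type replicates 1 and 2 left out (adjusted p = 0.0512 to 0.0795). The list gave 1 call with any 1 of sham mutant replicate 3 and sham wild type replicate 1 left out but 3 with any 1 of sham mutant replicate 2 and sham wild type replicate 4 left out.

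Matrix, endothelial and epicardial genes were called in both directions. Of 67 matrix genes 2 were called higher and 4 lower (8.96%, against 5.81% of all genes). Of 37 endothelial and endocardial genes 2 were called higher and 3 lower (13.5%). ramp2, a co-receptor for adrenomedullin, had 224, 217, 255 and 213 CPM in sham mutants against 79.7, 76.2, 91.2 and 125 CPM in sham wild types. No wild type reached the mutant range (log2 fold change 1.29 ± 0.26, edgeR adjusted p = 0.00661). SPOCK3, a secreted proteoglycan named after its values were seen, had 983, 909.8, 1084 and 994 CPM in sham mutants against 508, 393, 502 and 465 CPM in sham wild types. Mutants lay above wild types throughout (log2 fold change 1.09 ± 0.19, edgeR adjusted p = 0.00237). klf2b, a flow-responsive factor of endothelium, had 31.5, 20.6, 34.5 and 36.3 CPM in sham mutants against 53.7, 87.5, 65.4 and 64.2 CPM in sham wild types. Mutants lay below wild types throughout (log2 fold change -1.14 ± 0.25, edgeR adjusted p = 0.0101). These 3 calls held in all 8 fits without 1 library. The other 2 endothelial calls were lower. lyve1a averaged 0.453 CPM in sham mutants against 2.65 CPM in sham wild types (log2 fold change -2.63, edgeR adjusted p = 0.0376). plvapa averaged 9.31 CPM in sham mutants against 23.5 CPM in sham wild types (log2 fold change -1.36, edgeR adjusted p = 0.0395). The plvapa groups overlapped. In the 8 fits lyve1a was called only without sham mutant replicate 2, and plvapa only without sham mutant replicate 3 or sham wild type replicate 4. Of the matrix genes, col5a3a, a fibrillar collagen, had 4.99, 2.60, 5.27 and 6.18 CPM in sham mutants against 0.855, 0.794, 1.65 and 1.88 CPM in sham wild types. Separation was complete, with mutants higher (log2 fold change 1.90 ± 0.43, edgeR adjusted p = 0.0123). BGN (ENSDARG00000002945), biglycan, had 4.06 ± 1.93 CPM in sham mutants against 10.7 ± 3.79 CPM in sham wild types (SD, n = 4 each; log2 fold change -1.39 ± 0.34, edgeR adjusted p = 0.021), a call lost with any 1 of sham mutant replicates 1 and 3 and sham wild type replicates 2 and 4 left out (adjusted p = 0.0504 to 0.0732). The abundant matrix genes FN1 (ENSDARG00000006526) and COL1A1 were not called (log2 fold change -0.08 and 0.22). The endothelial list gave 3 calls with any 1 of sham mutant replicates 1 and 4 and sham wild type replicates 1, 2 and 3 left out but 5 without sham wild type replicate 4. The matrix list gave 2 calls without sham wild type replicate 2 but 6 with any 1 of sham mutant replicate 3 and sham wild type replicate 3 left out.

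Periostin marks activated fibroblasts after injury, and stands in the matrix and the epicardial list. POSTN (ENSDARG00000104267) had 42.7, 29.1, 49.0 and 52.4 CPM in sham mutants against 60.2, 136, 58.8 and 118 CPM in sham wild types. Separation was complete, with mutants lower (log2 fold change -1.11 ± 0.27, edgeR adjusted p = 0.0195). The second POSTN gene (ENSDARG00000043806) had 30.5 ± 5.27 CPM in sham mutants against 55.3 ± 17.5 CPM in sham wild types (SD, n = 4 each; edgeR adjusted p = 0.0563). The first lost its call with any 1 of sham mutant replicates 1 and 2 and sham wild type replicates 2 and 4 left out (adjusted p = 0.0517 to 0.0819). It was the 1 lower call among 20 epicardial genes, of which 10.0% were called, against 5.81% of all genes. The other call there was PTX3 (ENSDARG00000068275), a pentraxin, which was higher (log2 fold change 1.00 ± 0.25, edgeR adjusted p = 0.0232). PTX3 lost its call with any 1 of sham mutant replicates 1 and 4 and sham wild type replicate 4 left out (adjusted p = 0.0655 to 0.0716). Of 19 fibroblast genes 1 was called (5.26%, against 5.81% of all genes), the complement gene c4, which was higher. It had 389 ± 74.8 CPM in sham mutants against 200.1 ± 63.4 CPM in sham wild types (SD, n = 4 each; edgeR adjusted p = 0.0267), a call lost with any 1 of sham mutant replicates 2 and 3 and sham wild type replicates 2, 3 and 4 left out (adjusted p = 0.069 to 0.0847). ANXA2, an annexin of membrane repair named after its values were seen, had 734, 718, 1043 and 764 CPM in sham mutants against 269, 363, 273 and 501 CPM in sham wild types. All mutant libraries lay above all wild-type libraries (log2 fold change 1.21 ± 0.23, edgeR adjusted p = 0.00405). That call held in all 8 fits.

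No gene of red cells and thrombocytes was called by edgeR among 18 tested, where 4 had an unadjusted p below 0.05 and DESeq2 also called none. The globin gene hbaa1 had 954, 462, 431 and 647 CPM in sham mutants against 2282, 1366, 1116 and 1214 CPM in sham wild types. All mutants lay below all wild types, short of the threshold (log2 fold change -1.26 ± 0.43, edgeR adjusted p = 0.0942). The summed list was 856 to 1633 CPM in sham mutants against 1727 to 3057 CPM in sham wild types, lower in every sham mutant than in any sham wild type. In that sum hbaa1 alone averaged 624 ± 239.9 CPM in sham mutants against 1495 ± 535 CPM in sham wild types (SD, n = 4 each). The median log2 fold change of the 18 genes was -0.05, with 8.0 positive and 10.0 negative values, and ran over -0.27 to 0.17 in the fits without 1 library. Its part in the other differences was not tested.

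The other lists had 1 or 2 calls each, and their shares stand beside 5.81% of all genes. Yap and Hippo genes had 1 call of 25 (4.00%), AMOTL2, higher (log2 fold change 0.95 ± 0.27, edgeR adjusted p = 0.0431) and lost with any 1 of sham mutant replicates 3 and 4 and sham wild type replicates 1, 2 and 3 left out (adjusted p = 0.0898 to 0.141). The Yap target CCN1 was at -0.48 on the log2 scale. Among 28 cardiac transcription factors klf2b was the 1 call (3.57%), and GATA5 and HAND2 were at 0.08 and 0.12. Stress and hypertrophy markers had 2 calls of 25 (8.00%), MYH6 (ENSDARG00000079564) higher and CRYAB (ENSDARG00000101380) lower. The gene spelled myh6 (ENSDARG00000090637) was not called. This list had no higher call with any 1 of sham mutant replicate 4 and sham wild type replicates 1 and 3 left out. Of 55 cell cycle genes 1 was called each way (3.64%), both under 6 CPM. They were TTK, higher, and STMN1, lower. TTK lost its call with any 1 of sham mutant replicates 2, 3 and 4 and sham wild type replicates 1, 2 and 4 left out (adjusted p = 0.061 to 0.095), and STMN1 with any 1 of sham mutant replicates 1, 2, 3 and 4 and sham wild type replicates 2 and 4 left out (adjusted p = 0.0564 to 0.102). DESeq2 did not call TTK (adjusted p = 0.0593). The p53 list had 1 call each way among 29 (6.90%), bbc3, a pro-apoptotic gene, at 2.14 and baxb at -0.77. bbc3 lost its call with any 1 of sham mutant replicate 1 and sham wild type replicate 4 left out (adjusted p = 0.0507 to 0.0609), and baxb with any 1 of the 8 libraries left out (adjusted p = 0.0599 to 0.122). Glutathione and oxidative stress genes had 2 of 40 (5.00%), both higher. gstp1.2 averaged 178 ± 18.6 CPM in sham mutants against 103 ± 7.60 CPM in sham wild types (SD, n = 4 each; edgeR adjusted p = 0.00476). txnb, a thioredoxin, averaged 22.9 ± 6.67 CPM in sham mutants against 9.10 ± 1.52 CPM in sham wild types (SD, n = 4 each; edgeR adjusted p = 0.00735). The lipoprotein list had apoeb as its 1 call of 29 (3.45%), and the dynein and cilia list CCDC39 as its 1 call of 17 (5.88%). The skeletal muscle list had RYR1 (ENSDARG00000011422), under 3 CPM, as its 1 call of 29 (3.45%). That call was lost with any 1 of sham mutant replicates 1, 2 and 3 and sham wild type replicates 1, 2 and 4 left out (adjusted p = 0.0653 to 0.148). The more abundant RYR1 (ENSDARG00000023797) was not called. It averaged 95.8 CPM in sham mutants against 79.0 CPM in sham wild types (edgeR adjusted p = 0.528). The liver and gut list had 2 calls of 7 (28.6%, against 5.81% of all genes), the highest share of any list. It kept 2 calls in every fit without 1 library. They went opposite ways. amy2a was higher, at an average of 1.76 CPM in sham mutants against 0.0514 CPM in sham wild types, with at most 20 counts in any sham library. RBP4 was lower, at an average of 136 CPM in sham mutants against 229 CPM in sham wild types.

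**Figure D4:**
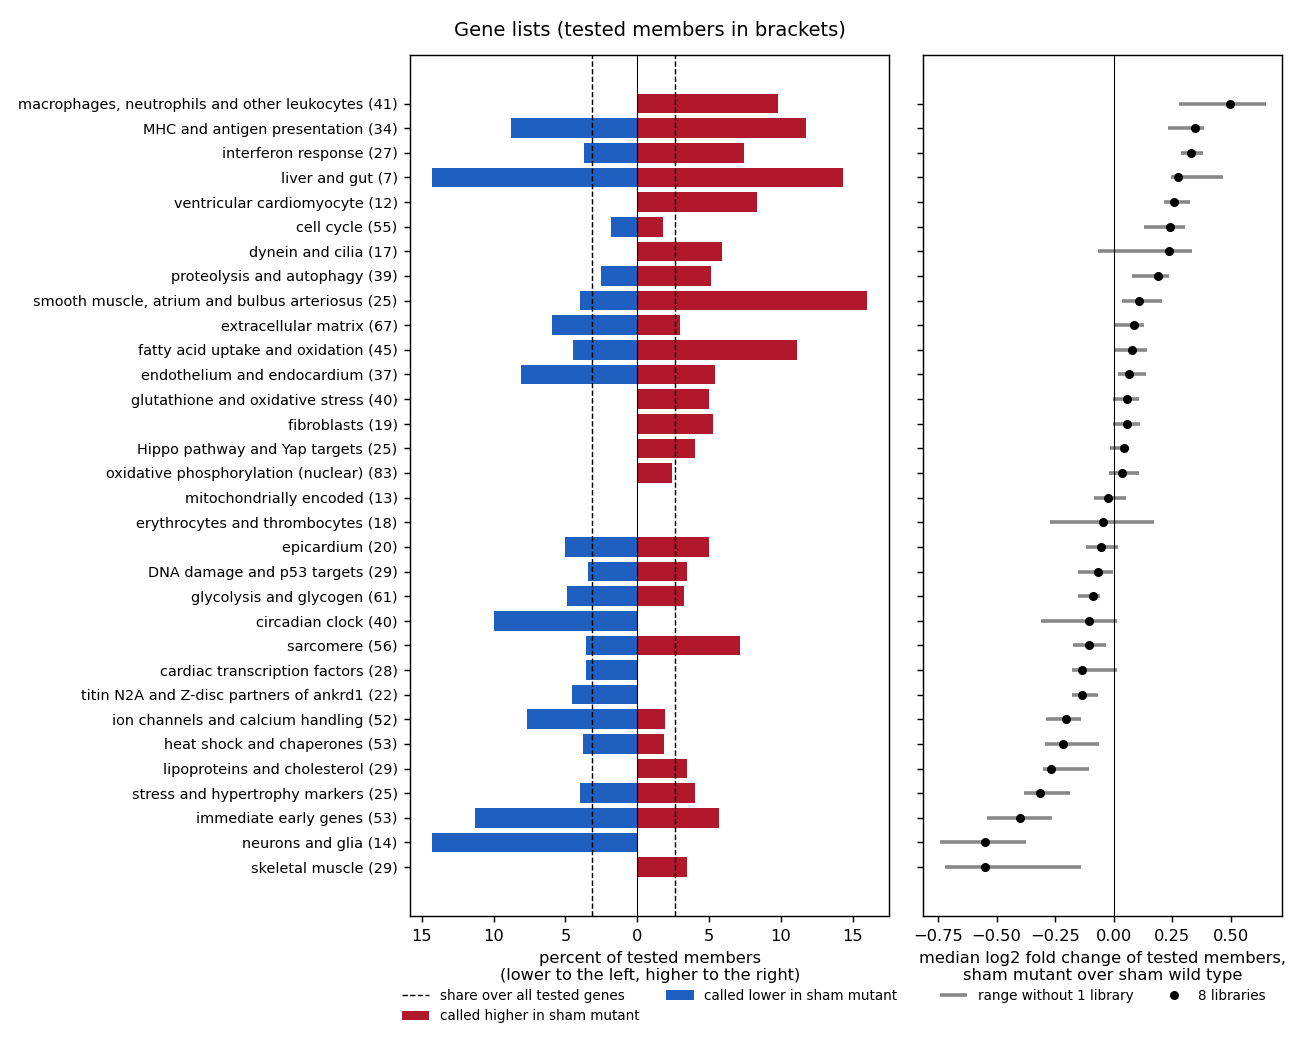
For the 32 gene lists, with the number of tested members in brackets, the left panel gives the percent of members called higher (right of 0, red) and lower (left of 0, blue) in sham mutants beside the shares over all genes (dashed, 2.62% higher and 3.19% lower). The right panel gives the median log2 fold change of each list with its range over the 8 fits without 1 library; leukocyte genes sit highest and skeletal muscle and neuron lists lowest.

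The 15 genes with the largest rises and the 15 with the largest falls, among called genes with a symbol, at least 10 CPM in a group and no overlap, held several genes beside those already described. CCDC39, a scaffold of dynein arms in motile cilia, had 15.9, 14.9, 12.5 and 18.9 CPM in sham mutants against 0.171, 0, 2.67 and 0 CPM in sham wild types. Every mutant was higher than every wild type (log2 fold change 4.59 ± 0.63, edgeR adjusted p = 0.000552). Its log2 fold change was 7.77 without sham wild type replicate 3. It was the 1 call among the dynein and cilia genes. stk17al, of a family of serine-threonine kinases, had 64.6, 129, 57.4 and 26.1 CPM in sham mutants against 14.2, 14.8, 15.2 and 9.05 CPM in sham wild types. The lowest mutant exceeded the highest wild type (log2 fold change 2.38 ± 0.37, edgeR adjusted p = 0.00132). VSNL1, a neuronal calcium sensor, had 27.4, 28.7, 32.0 and 28.0 CPM in sham mutants against 11.3, 4.13, 2.47 and 4.78 CPM in sham wild types. Mutants were higher without overlap (log2 fold change 2.34 ± 0.48, edgeR adjusted p = 0.00745). ndrg3a, of the N-myc downstream regulated family, had 49.1, 53.4, 32.8 and 56.5 CPM in sham mutants against 10.8, 15.1, 9.47 and 14.0 CPM in sham wild types. Wild types were all lower (log2 fold change 1.96 ± 0.29, edgeR adjusted p = 0.00101). SORT1 (ENSDARG00000056252), sortilin, a sorting receptor, had 58.4, 69.5, 79.2 and 45.6 CPM in sham mutants against 20.0, 13.7, 22.6 and 10.8 CPM in sham wild types. The groups lay apart, mutants higher (log2 fold change 1.92 ± 0.35, edgeR adjusted p = 0.00339). The second SORT1 gene (ENSDARG00000029402) was not called. It averaged 18.3 CPM in sham mutants against 24.1 CPM in sham wild types (log2 fold change -0.40, edgeR adjusted p = 0.339). The rest were SLA (ENSDARG00000100287), an adaptor protein, tafa2, which encodes a small secreted protein, PCDH15 (ENSDARG00000098257), a protocadherin, brca2, of DNA repair, PPP1R27, which binds protein phosphatase 1, and MAN2B2, a lysosomal mannosidase. Their values ran over log2 fold changes of 1.95 to 2.52. PPP1R27 had a log2 fold change of 1.70 without sham mutant replicate 4. It lost its call with any 1 of sham mutant replicate 4 and sham wild type replicates 1, 2 and 4 left out (adjusted p = 0.0648 to 0.127), and MAN2B2 with any 1 of the 8 libraries left out (adjusted p = 0.0604 to 0.122).

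On the lower side, smpd5, a sphingomyelin phosphodiesterase, had 2.49, 4.71, 2.54 and 1.70 CPM in sham mutants against 33.3, 26.2, 20.8 and 38.1 CPM in sham wild types. All mutant libraries lay below all wild-type libraries (log2 fold change -3.40 ± 0.33, edgeR adjusted p = 2.59e-05). EFEMP1, a fibulin of the matrix, had 0.554, 1.79, 1.37 and 1.20 CPM in sham mutants against 7.52, 13.0, 14.2 and 14.3 CPM in sham wild types. Every mutant was lower than every wild type (log2 fold change -3.33 ± 0.36, edgeR adjusted p = 9.79e-05). NECAB3, a calcium-binding protein, had 1.52, 1.14, 1.56 and 1.40 CPM in sham mutants against 18.1, 10.6, 5.14 and 8.02 CPM in sham wild types. The highest mutant stayed below the lowest wild type (log2 fold change -2.89 ± 0.34, edgeR adjusted p = 0.000147). In these 3 the groups were also apart in injured hearts. SPHKAP, an anchor of protein kinase A that is abundant in mammalian heart, had 1.80, 1.95, 1.95 and 1.60 CPM in sham mutants against 8.89, 12.7, 15.8 and 16.0 CPM in sham wild types. Mutants were lower without overlap (log2 fold change -2.87 ± 0.51, edgeR adjusted p = 0.00294). DOCK11, an activator of Cdc42, had 5.68, 2.60, 3.90 and 2.59 CPM in sham mutants against 6.16, 22.4, 26.3 and 31.1 CPM in sham wild types. Wild types were all higher (log2 fold change -2.54 ± 0.45, edgeR adjusted p = 0.00305). SOX11 (ENSDARG00000095743), a transcription factor, had 9.29, 9.26, 7.81 and 3.09 CPM in sham mutants against 28.9, 14.1, 44.4 and 51.2 CPM in sham wild types. The groups lay apart, mutants lower (log2 fold change -2.25 ± 0.43, edgeR adjusted p = 0.00422). TTC39C had 2.77, 3.73, 3.71 and 1.99 CPM in sham mutants against 8.89, 11.7, 17.5 and 20.0 CPM in sham wild types. There was no overlap, and mutants were lower (log2 fold change -2.28 ± 0.38, edgeR adjusted p = 0.00186). CBR1, a carbonyl reductase, had 6.79, 3.73, 2.54 and 8.48 CPM in sham mutants against 31.5, 22.1, 26.5 and 27.3 CPM in sham wild types. Mutant values were all lower (log2 fold change -2.26 ± 0.37, edgeR adjusted p = 0.00194). tdh2, a threonine dehydrogenase, fell together with its abundant paralog tdh, which had 300.4, 234, 225 and 205 CPM in sham mutants against 468, 831, 463 and 408 CPM in sham wild types. No mutant reached the wild-type range (log2 fold change -1.17 ± 0.22, edgeR adjusted p = 0.00434). tdh2 had 3.05, 4.71, 3.12 and 1.60 CPM in sham mutants against 21.4, 17.6, 20.4 and 10.2 CPM in sham wild types. Mutants lay below wild types throughout (log2 fold change -2.50 ± 0.34, edgeR adjusted p = 0.000552). Of the 15 largest rises, 11 were called in all 8 fits without 1 library, as were 14 of the 15 largest falls.

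Among abundant genes, selenop, which carries selenium, had 1405 ± 199.6 CPM in sham mutants against 778 ± 100.3 CPM in sham wild types (SD, n = 4 each; log2 fold change 0.85 ± 0.22, edgeR adjusted p = 0.0275). An unnamed gene, ENSDARG00000082753, had 2062, 2895, 3857 and 7355 CPM in sham mutants against 1395, 1126, 1583 and 1106 CPM in sham wild types. There was no overlap, and mutants were higher (log2 fold change 1.63 ± 0.34, edgeR adjusted p = 0.00765). BSG, basigin, a partner of lactate transporters, had 528 ± 38.0 CPM in sham mutants against 774 ± 49.9 CPM in sham wild types (SD, n = 4 each; log2 fold change -0.55 ± 0.15, edgeR adjusted p = 0.035). nme2b.2, a nucleoside diphosphate kinase, had 82.1, 119, 266 and 201 CPM in sham mutants against 694, 706, 493 and 676 CPM in sham wild types. Separation was complete, with mutants lower (log2 fold change -1.94 ± 0.36, edgeR adjusted p = 0.00382). nme2b.2 had the larger change of the pair and held in all 8 fits without 1 library. selenop lost its call with any 1 of sham mutant replicates 3 and 4 and sham wild type replicates 1, 2 and 4 left out (adjusted p = 0.0539 to 0.0809). BSG lost its call with any 1 of the 8 libraries left out (adjusted p = 0.0567 to 0.0966).

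Genes present in 1 genotype and at or below 3 counts in every library of the other were few. In sham mutants 2 were at that floor, mhc1uba and the unnamed ENSDARG00000110173. The unnamed gene had 0.416, 0.162, 0.195 and 0.0997 CPM in sham mutants against 217, 127, 95.9 and 154 CPM in sham wild types. All mutant libraries lay below all wild-type libraries (log2 fold change -9.35 ± 1.26, edgeR adjusted p = 0.000522). In injured hearts ENSDARG00000110173 had 0, 0.169, 0.246 and 0.540 CPM in injured mutants against 31.6, 105, 166 and 0.311 CPM in injured wild types. The last of these wild-type libraries, also the 1 that was nearly empty for actc1c, was as empty as the mutants. The 2 at the floor in sham wild type, rn7sl1 and ENSDARG00000090267, owed their level to 1 mutant library each.

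In 4 gene pairs with related names the members were called in opposite directions. cited4a, a transcriptional co-activator, had 119, 134, 86.5 and 68.8 CPM in sham mutants against 322, 303, 345 and 199 CPM in sham wild types. Every mutant was lower than every wild type (log2 fold change -1.52 ± 0.36, edgeR adjusted p = 0.0183). cited4b had 24.5, 15.6, 21.9 and 13.2 CPM in sham mutants against 5.98, 6.19, 5.76 and 3.93 CPM in sham wild types. Mutant values were all higher (log2 fold change 1.77 ± 0.35, edgeR adjusted p = 0.00576). The sum of both came to 121 ± 31.5 CPM in sham mutants against 298 ± 65.6 CPM in sham wild types (SD, n = 4 each). For acsl1b and ACSL1 the sum was 1379 ± 343 CPM in sham mutants against 749 ± 147 CPM in sham wild types (SD, n = 4 each). The pairs were chosen by their calls, so the sums are given without a test. The 2 FREM2 genes, of a basement membrane protein, had log2 fold changes of 3.14 (ENSDARG00000076856) and -1.01 (ENSDARG00000102626). BCL6 and BCL6B, transcriptional repressors encoded by separate genes, were at 1.41 and -0.82 on the log2 scale. cited4a lost its call with any 1 of sham mutant replicates 3 and 4 left out (adjusted p = 0.0564 to 0.0643). BCL6 lost its call with any 1 of sham mutant replicates 1 and 2 and sham wild type replicates 1, 2, 3 and 4 left out (adjusted p = 0.0518 to 0.137), and BCL6B with any 1 of sham mutant replicates 1, 2 and 3 and sham wild type replicates 1, 2 and 3 left out (adjusted p = 0.0533 to 0.0949). How the authors' counting divided reads between related genes was not tested.

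The injured libraries give the genotype difference a second time, in other fish. There 384 of 14986 genes (2.56%) were called between injured mutant and injured wild type. Of the 392 genes higher in sham mutants, 96 (24.5%) were also called higher in injured mutants, where 1.12% of all genes were called higher. Of the 478 lower, 108 (22.6%) were called lower in injured mutants, where 1.44% of all genes were called lower. The same sign was found in 91.6% of the higher and 88.5% of the lower genes, against 63.1% over all genes tested. Seen from the injured side, 53.1% of its calls were called the same way in sham hearts. Medians lay nearer to 0 in injured hearts. Genes called higher in sham had a median log2 fold change of 0.63 in injured hearts, and those called lower one of -0.63. These genes were chosen by their sham values. A total of 146 called genes separated all 8 mutant libraries from all 8 wild-type libraries, against 1.17% of all genes tested.

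**Figure D5:**
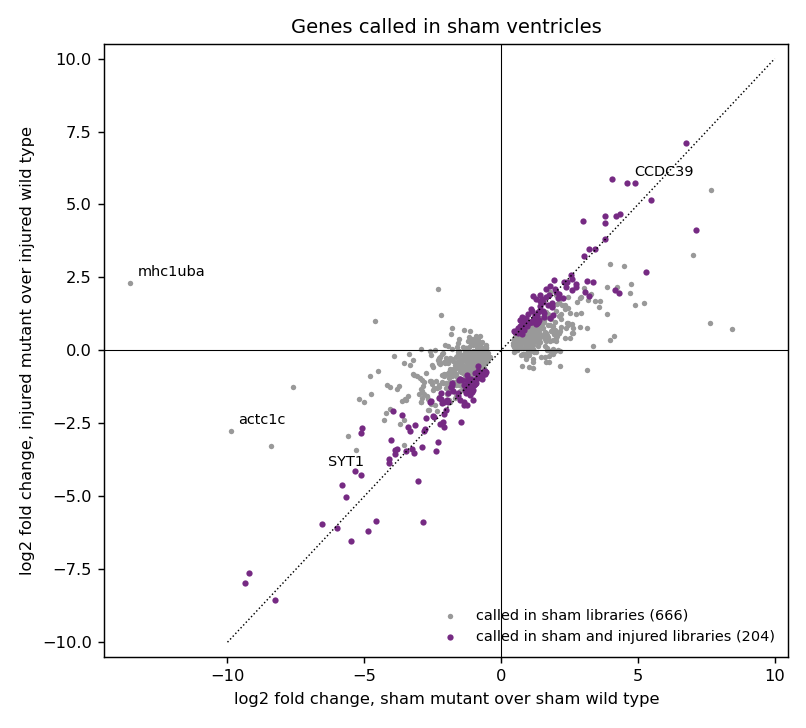
Each point is 1 of the 870 genes called in sham ventricles, with the log2 fold change of sham mutant over sham wild type on the x axis and that of injured mutant over injured wild type on the y axis, and a dotted line of equality. Purple points, 204 genes, were called in both and lie along the line, and grey points, 666 genes, were called in sham and not in injured hearts and lie closer to 0 on the y axis.

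The test of the difference between both genotype effects, the interaction of genotype and operation, called no gene in edgeR. There, 1155 of the 14986 genes tested had an unadjusted p below 0.05, and the lowest adjusted p was 0.0876. Of the 15 largest rises in sham mutants, all 15 had the same sign in injured hearts and 4 were called there. Of the 15 largest falls, 14 had the same sign and 6 were called. The injured groups did not overlap, in the same direction, for 7 of the 15 largest rises and 8 of the 15 largest falls. Over all genes tested they did not overlap, in either direction, for 8.03%. PFKM (ENSDARG00000014179) had 62.2, 48.9, 41.8 and 51.6 CPM in injured mutants against 10.9, 1.63, 1.49 and 0.831 CPM in injured wild types (log2 fold change 3.81 ± 0.54, edgeR adjusted p = 0.00137). CCDC39 had 8.17, 14.7, 15.7 and 14.4 CPM in injured mutants against 0, 0.116, 0.248 and 0.519 CPM in injured wild types (log2 fold change 5.74 ± 0.68, edgeR adjusted p = 0.000246). MYL9 (ENSDARG00000008030) had 2718, 2434, 1556 and 1881 CPM in injured mutants against 582, 501, 611 and 636 CPM in injured wild types (log2 fold change 1.88 ± 0.19, edgeR adjusted p = 4.91e-05). In these 3 genes injured mutants and injured wild types did not overlap. DOCK11, TTC39C, SORT1 and SLA, in contrast, had log2 fold changes of -0.49, -0.27, 0.55 and 0.43 in injured hearts, none of them called.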

How the data were processed

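RNA of 16 pools of zebrafish ventricles was sequenced from stranded poly(A) libraries, per the labels' protocols. The deposited table holds expected counts per gene, made by the authors with fastp 0.23.4, STAR 2.7.0 and 2.7.10 and RSEM 1.3.3, per the submitters' processing notes, which give no role or order. The genome build and annotation are not given in the sources used here. Between 3.00% and 5.02% of the expected counts were not whole, and all were rounded. Reads shared by related genes are divided by estimate in such counts.

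Genes were filtered with filterByExpr, scaled by TMM and tested in edgeR 4.0.16 by the quasi-likelihood F test in 1 fit of 4 group means over the 16 libraries, with Benjamini-Hochberg adjustment over 14986 of 32520 genes and a threshold of 0.05. The standard error is the log2 fold change divided by the square root of F. DESeq2 1.42.0, RLE scaling, other filters, the sham libraries alone, a replicate block, a minimum change and the omission of each sham library were the alternatives. P-values measure the spread between pools.

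Named were the ankrd1 and ankrd2 genes; the 15 genes that rose and the 15 that fell most among called genes with a symbol other than a clone name, at least 10 CPM in a group and no overlap; the 5 most abundant called in each direction; up to 4 called and 2 uncalled members of each of 32 lists; on/off genes; and paralog pairs called in opposite directions. Not every gene chosen in this way is described above. Among those left out are NR4A2 (ENSDARG00000017007), TIMP4 (ENSDARG00000100795), HAPLN1 (ENSDARG00000068516) and UBB (ENSDARG00000002369). Each of them was called and lost its call in a fit without 1 library. FABP3, SLC25A20, SPOCK3, ANXA2, b2m and b2ml were named after their values were seen. Comparison, lists and tests were chosen with earlier results of these data known. Of 1313 list names 1203 matched the table, 885 exactly and 318 by base name. Symbols come from a name table with capitalised orthologue symbols, so a gene ID is given where several genes share one.

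Counting intervals and floors cover counting error only. A planned look at chromosomes is not given here, so whether called genes lie near ankrd1a was not tested. A position was found for 67.5% of the called genes and 73.2% of the tested genes. Within each sham group, no 2 libraries agreed within sampling noise.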

Additional observations from a re-analysis of the deposited data

Results flagged for a closer look

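In groups of 4 libraries, a library is listed here when its gap to the nearest of the other 3 exceeds Dixon's 95% critical value, as a share of the group's range. With normally distributed values chance does this in about 1 in 20 groups. Many groups were screened, so chance alone would list some values, and no explanation was tested.

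Sham mutants had 3 such values. mhc2dhb was at 25.5 CPM in replicate 1, against 7.79 to 10.6 CPM in the other 3, and apoeb at 40.9 CPM in replicate 1, against 2.09 to 4.55 CPM. ANXA2 was at 1043 CPM in replicate 3, against 718 to 764 CPM in the other mutants.

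Sham wild type replicate 3 held 4 of the values. CCDC39 was at 2.67 CPM, against 0 to 0.171 CPM in the other wild types, mhc2dhb at 2.88 CPM and mhc2dgb at 1.44 CPM, both against 0, and nme2b.2 at 493 CPM, against 676 to 706 CPM. Each of these wild-type values lay toward the mutant level.

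Sham wild type replicate 4 held another 4. SYT1 was at 96.4 CPM, against 53.8 to 57.6 CPM in the other wild types, HSPH1 at 30.7 CPM, against 11.9 to 13.2 CPM, and cry3a at 78.7 CPM, against 44.4 to 48.9 CPM, all 3 away from the mutants. stk17al was at 9.05 CPM, against 14.2 to 15.2 CPM.

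Sham wild type replicate 2 stood out for tdh at 831 CPM, against 408 to 468 CPM, for marco at 15.2 CPM, against 8.02 to 8.21 CPM, and for mhc1zba at 404.7 CPM, against 458 to 459.7 CPM in the other wild types. Sham wild type replicate 1 stood out for c4, at 295 CPM against 162 to 175 CPM. The gene c4 is thus the 1 named fibroblast call with a wild-type library inside the mutant range.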

How the results depend on the processing

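The main fit made 870 calls among 14986 genes, 392 higher and 478 lower. DESeq2, given 24752 genes, made 1245 calls, 598 higher and 647 lower, and shared 855 of the genes. RLE scaling gave 873 calls among 14986 genes with 853 shared, and no filter 961 among 24752 with 785 shared. A filter at 1 CPM in 4 libraries gave 891 among 15700 with 864 shared. The 8 sham libraries alone gave 858 among 13166 with 664 shared. A minimum log2 fold change of 1 kept 78 calls, 30 higher and 48 lower, since it asks for more than a difference from 0. Leaving out 1 library gave 559 to 724 calls, 241 to 332 higher and 302 to 392 lower, with fewer samples in each of these fits. The lowest totals, 559 and 568, came when sham wild type replicate 2 or sham mutant replicate 4 was left out. Of 109 named genes called, 60 kept the call in all 8 such fits, and no named gene changed sign in any alternative.

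Same-numbered mutant and wild-type libraries deviated together with r = 0.15, -0.01, 0.03 and 0.11. The r of numbers 1 and 4 were the highest over all mutant and wild-type pairs, but not every library correlated best with its own number. On the third principal component, with 11.6% of the variance, sham mutants 1 to 4 lay at 25.5, -3.98, -34.5 and 15.6. Sham wild types 1 to 4 lay at 17.6, -5.29, -30.9 and 16.1, so replicate numbers came in the same order in both genotypes. The main fit did not take the numbers as pairs, and whether they mark a shared batch was not tested. With replicate number as a block, 745 genes were called, 337 higher and 408 lower, of which 706 were shared with the fit without it. Taking no count at all as the floor left 2 of the 4 on/off genes. Depth limits what can be said of genes below about 1 CPM, where a floor of 3 counts equals 0.299 to 0.616 CPM.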

Other observations

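Sham mutant replicate 4, the deepest library, differed from the other 7 in a few genes that stand in no list. zgc:158463 was at 18247 CPM there, against 178 to 365 CPM in the other 7 sham libraries, and si:dkey-153m14.1 at 15004 CPM, against 169 to 328 CPM. ENSDARG00000116076 was at 5422 CPM, against 42.8 to 122 CPM, and si:dkeyp-3b12.10 at 421 CPM, against 3.57 to 10.3 CPM. Of these 4, the edgeR fit called ENSDARG00000116076 as higher in mutants (adjusted p = 0.0418), which rests on that library alone. The unnamed ENSDARG00000082753 and rn7sl1 were also highest in the same library. What the genes without a descriptive name encode is not given in the table, and no cause was tested.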
